A study of Mus musculus with 4 samples.

Results

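The genes followed here encode the LAR receptor protein tyrosine phosphatases (*Ptprd*, *Ptprf* and *Ptprs*) and liprins (*Ppfia1*, *Ppfia2*, *Ppfia3*, *Ppfia4* and *Ppfibp1*). They were found by gene symbol in the table of gene levels and by gene identifier in the tables of splicing events. They are 8 of 23038 genes, and 49 of 38240 alternative splicing events lie in them. Messenger RNA was selected by its poly-A tail from the cortex of E14.5 mouse embryos, and was sequenced as paired reads of 150 nt. The 2 control embryos were *Qk* fl/fl, and the 2 *Qk* cKO embryos carried *Nestin*-cre with *Qk* fl/fl. Both groups thus carried the loxP sites, and only the *Qk* cKO embryos carried Cre, which the *Nestin* promoter drives in neural progenitor cells and their progeny. Other cells of the tissue keep *Qk*.

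LAR phosphatases are transmembrane receptors of axons and presynaptic terminals. Outside the cell they hold immunoglobulin domains followed by a row of fibronectin type III repeats, and inside the cell they hold a pair of phosphatase domains, of which the one nearer to the membrane is active. Small exons, called mini-exons, and exons of the fibronectin repeats are included or skipped in their transcripts, and the mini-exons of the immunoglobulin domains set which postsynaptic partners the receptor can bind. Liprins-α bind the phosphatase domain farther from the membrane and are scaffolds of the presynaptic active zone. Liprin-β1, encoded by *Ppfibp1*, is part of a complex that anchors microtubules at the cell cortex. *Qk* encodes the RNA-binding protein Qki, of which the nuclear isoform acts in splicing.

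The exons that the results turn on are shown here from the GENCODE M21 transcripts (GRCm38, the same build as mm10), 5′ to 3′, all on the minus strand. Each of the 3 phosphatase genes has an exon of 27 nt in the coding region, between the same pair of exons of the fibronectin repeats. In the next lines the exon is in capitals and 15 nt of the exon on each side are in lower case.
*Ptprd* 27-nt exon, chr4:76095520-76095546: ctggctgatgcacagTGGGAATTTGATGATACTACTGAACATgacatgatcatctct
*Ptprf* 27-nt exon, chr4:118227819-118227845: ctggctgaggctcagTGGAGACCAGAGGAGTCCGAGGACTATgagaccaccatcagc
*Ptprs* 27-nt exon, chr17:56427791-56427817: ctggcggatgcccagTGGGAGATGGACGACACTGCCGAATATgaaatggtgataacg
The 27-nt exons of *Ptprd* and *Ptprs* have 19 of 27 bases in common, those of *Ptprf* and *Ptprs* 14, and those of *Ptprd* and *Ptprf* 13. All 3 add 9 codons and keep the reading frame.

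The mini-exon of 12 nt in *Ptprd*, known as meB, adds 4 codons between the exons of the second and the third immunoglobulin domain. An exon of 33 nt in *Ptprf* adds 11 codons on the cytoplasmic side of the membrane, ahead of the phosphatase domains. Capitals again mark the exon.
*Ptprd* 12-nt exon, chr4:76135545-76135556: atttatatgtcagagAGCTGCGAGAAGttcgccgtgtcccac
*Ptprf* 33-nt exon, chr4:118218012-118218044: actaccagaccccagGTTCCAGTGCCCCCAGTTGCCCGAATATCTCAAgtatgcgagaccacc

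Larger pieces of the fibronectin repeats are also alternative. Between an exon of 145 nt and one of 98 nt, each of the 3 genes has exons of 306, 194 and 118 nt followed by one of 588 nt in *Ptprd*, 579 nt in *Ptprf* and 600 nt in *Ptprs*. In *Ptprf* the exon of 579 nt alone (193 codons, exon 15 of the transcript Ptprf-201, chr4:118225799-118226377) is an event in the files. In *Ptprs* the whole block of 4 exons (1218 nt, 406 codons, exons 11 to 14 of Ptprs-201, chr17:56425327-56429157) is an event. Both lengths keep the reading frame. The 600-nt exon of *Ptprs* alone is also an event in the files, but it had too few junction tags to be tested. The junctions that report the *Ptprf* exon and the *Ptprs* block are shown with 20 nt on each side, the alternative exon in capitals.
*Ptprf* into the 579-nt exon: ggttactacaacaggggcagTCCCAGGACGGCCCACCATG
*Ptprf* out of the 579-nt exon: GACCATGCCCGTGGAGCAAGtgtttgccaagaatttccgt
*Ptprf* skipping: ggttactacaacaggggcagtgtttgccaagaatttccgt
*Ptprs* into the block: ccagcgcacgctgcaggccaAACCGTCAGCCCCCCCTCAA
*Ptprs* out of the block: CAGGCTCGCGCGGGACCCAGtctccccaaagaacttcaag
*Ptprs* skipping: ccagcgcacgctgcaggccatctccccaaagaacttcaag

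The libraries held between 37942046 and 42994832 tags assigned to genes, a tag being the unit that Quantas counts. Tags on the junction of *Qk* exons 2 and 3 numbered 635 and 565 in control and 63 and 68 in *Qk* cKO, so the targeted exon 2 was depleted as labelled. Tags over the whole gene rose, from 8647 and 8135 in control to 13794 and 13857 in *Qk* cKO. The log2 fold change of *Qk* was 0.65 (edgeR's quasi-likelihood test, adjusted p = 2.5e-05). Its RNA was thus not lost as a whole. Over the 18834 genes with at least 1 tag, 110 changed in level (0.584%), 39 (0.207%) upward and 71 (0.377%) downward. These calls are from edgeR's quasi-likelihood test, with an unadjusted p below 0.01 and a Benjamini-Hochberg FDR below 0.1. Of 10 radial glia markers, a list chosen with earlier results of these data known, 6 fell. RPKM is tags per kb of exon, scaled to the total tags of the library. Summed over the 10 markers it was 1667 and 1552 in control and 1339 and 1277 in *Qk* cKO. *Fabp7*, which was called, made up much of that sum, with 988.9 and 900.9 in control and 702.7 and 666.6 in *Qk* cKO. The markers not called were *Nes*, *Vim*, *Hes5* and *Sox2*, with log2 fold changes of 0.04, -0.01, -0.19 and -0.29. None of the 9 cortex markers, 9 postmitotic neuron markers, 6 interneuron and ventral markers or 11 blood, vessel, immune and mesenchymal markers was called by edgeR, where 1, 1, 2 and 1 of them had an unadjusted p below 0.05, and edgeR's exact test and DESeq2 also called 0. No gene of these lists was at 0. The part of the radial glia difference in the splicing results was not tested. In tissue RNA, fewer cells of a type and less RNA per cell cannot be told apart.

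None of the 8 genes was called as changed in steady-state level. The count was 0 of 8 against 0.584% of all genes with edgeR's quasi-likelihood test, and it was also 0 with edgeR's exact test and with DESeq2. An unadjusted p below 0.05 was reached by 1 of the 8 genes, *Ppfia3*, and by 8.76% of all genes. The log2 fold changes of *Qk* cKO over control lay between -0.18 and 0.16, 4 above and 4 below 0, where the median of all genes was -0.0025. The RPKM of 6 of the 8 genes did not overlap between the groups, which was also so for 36.9% of all genes tested.

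The receptors spanned a wide range of levels. *Ptprs* (gene 19280) was the most abundant, with an RPKM of 166.9 and 173.7 in control and 159.2 and 156.0 in *Qk* cKO (mean 170.3 ± 4.79 and 157.6 ± 2.31, SD, n = 2). Both *Qk* cKO embryos were below both controls, with a log2 fold change of -0.10 (SE 0.079, edgeR adjusted p = 0.810). *Ptprf* (gene 19268), which encodes LAR itself, had an RPKM of 49.3 and 51.8 in control and 47.1 and 47.1 in *Qk* cKO (50.6 ± 1.77 and 47.1 ± 0.00716). Its log2 fold change was -0.09 (SE 0.073, edgeR adjusted p = 0.818), again with the groups apart but by little. *Ptprd* (gene 19266) had an RPKM of 22.5 and 22.4 in control and 22.8 and 23.8 in *Qk* cKO, a log2 fold change of 0.07 (SE 0.060, edgeR adjusted p = 0.829). Approximate bounds at 2 SE on either side were -0.26 to 0.06 for *Ptprs*, -0.24 to 0.06 for *Ptprf* and -0.05 to 0.19 for *Ptprd*.

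Among the liprins, *Ppfia1* (liprin-α1, gene 233977) was highest, with an RPKM of 23.6 and 22.4 in control and 23.1 and 24.9 in *Qk* cKO, and its groups overlapped. *Ppfia2* (liprin-α2, gene 327814) had 18.2 and 17.8 in control and 19.0 and 18.7 in *Qk* cKO. *Ppfia3* (liprin-α3, gene 76787), a liprin of the active zone, had 14.8 and 15.02 in control and 13.5 and 13.2 in *Qk* cKO. Its log2 fold change of -0.15 (SE 0.068) had the smallest p of the 8 genes, 0.040, with an edgeR adjusted p of 0.535. The bounds at 2 SE were -0.28 to -0.01, which left out 0. *Ppfibp1* (gene 67533) had 5.78 and 6.11 in control and 6.32 and 6.84 in *Qk* cKO, and *Ppfia4* (liprin-α4, gene 68507) had 4.02 and 3.69 in control and 3.03 and 3.73 in *Qk* cKO. The log2 fold changes were 0.07 for *Ppfia1*, 0.08 for *Ppfia2*, 0.16 for *Ppfibp1* and -0.18 for *Ppfia4*, with edgeR adjusted p of 0.791, 0.766, 0.717 and 0.748. In the same order, the bounds at 2 SE were -0.04 to 0.19, -0.03 to 0.19, -0.04 to 0.36 and -0.42 to 0.06. Single embryos moved the smaller differences, that of *Ppfia4* being -0.05 without *Qk* cKO replicate 1 and -0.32 without *Qk* cKO replicate 2 (unadjusted p = 0.033, edgeR adjusted p = 0.734), and that of *Ppfia1* 0.12 and 0.03 without the same embryos. In order of RPKM, a measure per length of the exons, the genes ran from *Ptprs* through *Ptprf*, *Ppfia1*, *Ptprd*, *Ppfia2*, *Ppfia3* and *Ppfibp1* to *Ppfia4*. Only the neighbours *Ppfia1* and *Ptprd* overlapped in their values. The plot of RPKM shows this order and how close the groups lay.

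**Figure D1:**
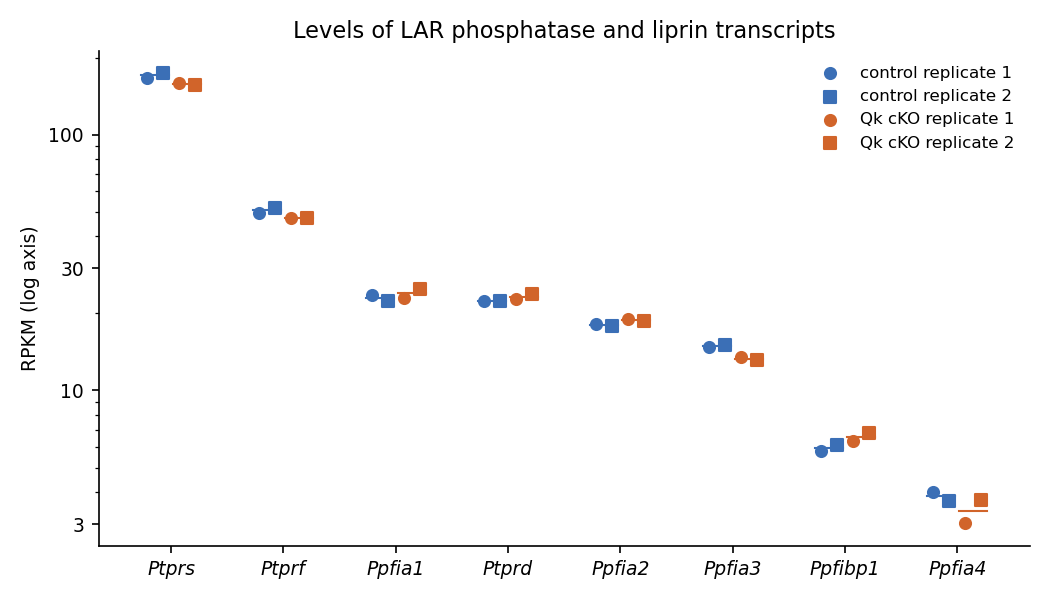
RPKM of the 8 genes in each embryo on a log axis, ordered by mean level. Circles and squares are replicates 1 and 2, blue is control, orange is *Qk* cKO, and horizontal lines are group means. The values run from 173.7 for *Ptprs* to 3.03 for *Ppfia4*, and each gene's 4 values lie close together.

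The genes whose level followed the same course over the 4 embryos were *Lmo2* and *Thra* for *Ptprf* and *Tmem50a* and *Llgl1* for *Ptprs*. The root mean square difference of centred log2(RPKM + 0.1) was 0.0033 and 0.0034 for the first pair and 0.0036 and 0.0039 for the second, among 12742 genes. The measure rests on 4 samples, in which all of these genes moved little.

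Splicing was compared at 22 of the 49 events, those with a coverage of at least 20 tags (the smallest row or column sum of the junction tags by group). Inclusion is the share of junction tags, counted per junction, that support the longer isoform, and Δ*I* is inclusion in control minus inclusion in *Qk* cKO. Fisher's exact test (two-sided, on tags summed over the replicates, p < 0.01 and FDR < 0.1) called 5 of the 22 events, against 7.50% of all 11500 events tested. The 5 events were 2 of the 5 tested in *Ptprf* and all 3 tested in *Ptprs*. None of the 4 tested in *Ptprd* and none of the 10 tested in the liprins was called. Inclusion was lower in *Qk* cKO in 3 of the 5 (3.53% of all events were called in that direction) and higher in 2 (3.97%). With a Δ*I* of at least 0.1 as well, 3 events remained (3.30% of all events). The 8 genes were chosen with earlier results of these data known. The paper already lists *Ptprf* and *Ptprs* among its spliced genes from these data, so their share of calls was not a fresh draw.

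Fisher's test treats tags as independent and does not see the spread between embryos. The edgeR interaction test, in which each embryo has its own baseline and the ratio of the isoforms may differ with genotype, uses that spread. It called none of the 22 events (0.557% of all events), and 3 of them, all in *Ptprf* and *Ptprs*, had an unadjusted p below 0.05 (7.17% of all events). The inclusion values of 8 of the 22 events did not overlap between the groups, which is 36.4%, close to the 37.9% of all events. The plot of Δ*I* shows that the phosphatase events spread on both sides of 0, with a median absolute Δ*I* of 0.0883 over 12 events, while the 10 liprin events had a median of 0.0152 and all tested events one of 0.0256. Events of 1 gene share tags, so these are not independent measurements. The median coverage was 217 tags for the phosphatase events, 51.2 for the liprin events and 65.8 for all tested events. The power to call a difference was thus unequal between these sets.

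**Figure D2:**
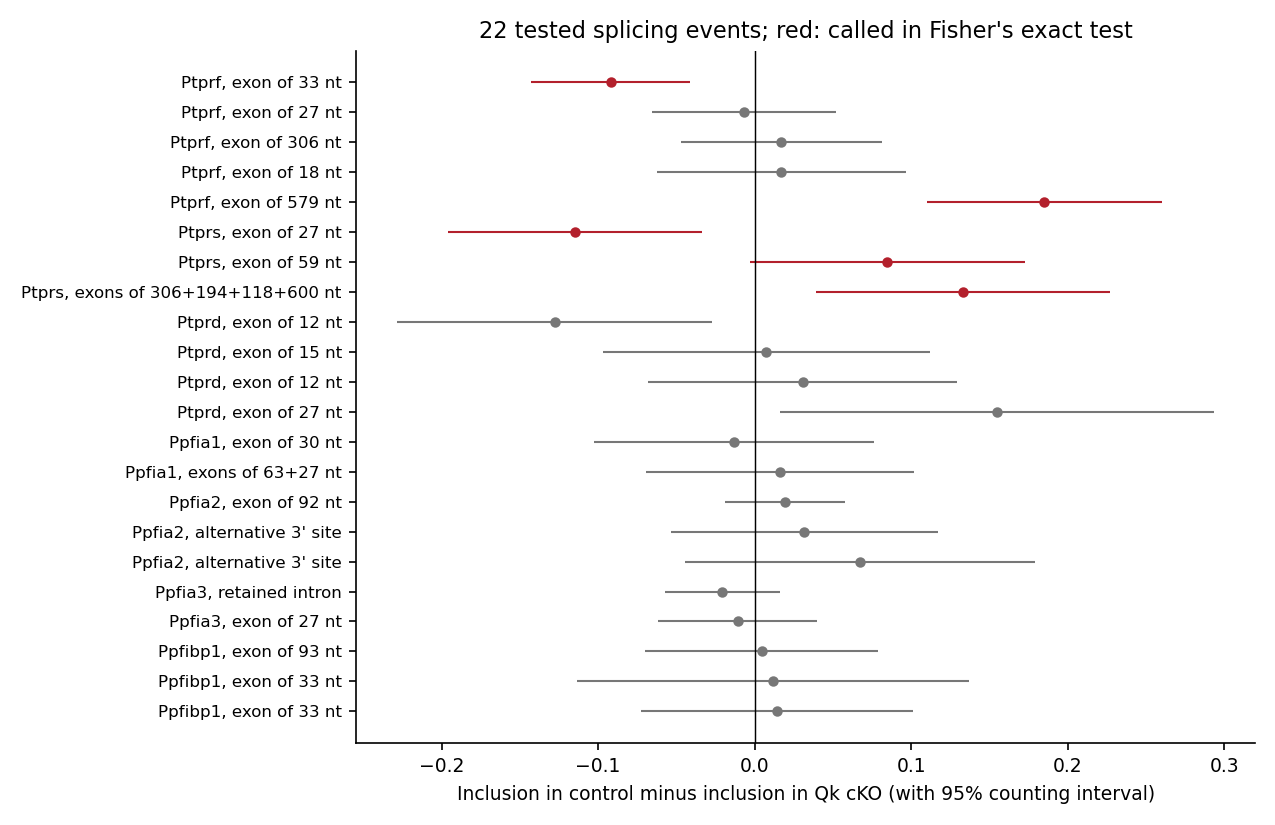
Δ*I* (inclusion in control minus inclusion in *Qk* cKO) of the 22 tested events, 1 row per event, with the 95% interval from counting error. Red points were called in Fisher's exact test. They lie in *Ptprf* and *Ptprs*, on both sides of 0, with Δ*I* from -0.115 to 0.185.

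The 579-nt exon of *Ptprf*, which encodes fibronectin repeats, showed the largest difference of the 22 events. Its inclusion was 0.549 (95% Wilson interval 0.471 to 0.624) and 0.565 (0.486 to 0.641) in control, and 0.347 (0.283 to 0.417) and 0.403 (0.329 to 0.483) in *Qk* cKO. Both *Qk* cKO embryos were below both controls, the means being 0.557 ± 0.0113 and 0.375 ± 0.0401 (SD, n = 2). The Δ*I* over summed tags was 0.185 (95% counting interval 0.110 to 0.260, Fisher's exact test, adjusted p = 9.26e-07). The call stood when any 1 of the 4 embryos was left out, with Δ*I* from 0.153 to 0.210. The edgeR interaction test gave a p of 0.0021 and an adjusted p of 0.148. On junction tags alone, an alternative added after the data were seen, the edgeR adjusted p was 0.0979, and this exon was the 1 event of the 8 genes called there (1.12% of all events).

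All 3 junctions of this exon separated the groups. Tags into the exon numbered 64.0 and 67.0 in control and 37.0 and 40.0 in *Qk* cKO, and tags out of it 111.2 and 107.0 against 94.6 and 83.0. Tags on the skipping junction numbered 72.0 and 67.0 in control and 124.0 and 91.0 in *Qk* cKO. Inclusion from the entry junction alone was 0.471 and 0.500 against 0.230 and 0.305, and from the exit junction alone 0.607 and 0.615 against 0.433 and 0.477. The groups were apart on both sides of the exon, although the exit carried more tags than the entry in every embryo. Tags within the exon, per 1000 tags of the gene, were 34.4 and 35.1 in control and 27.9 and 27.6 in *Qk* cKO.

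Other exons of the same receptor region did not move in this way. The 27-nt exon of *Ptprf* had an inclusion of 0.662 and 0.642 in control and 0.676 and 0.639 in *Qk* cKO (Δ*I* -0.00701, 95% counting interval -0.0658 to 0.0518). The 306-nt exon had 0.566 and 0.638 in control and 0.572 and 0.592 in *Qk* cKO (Δ*I* 0.0170, interval -0.0471 to 0.0812). Tags into the 306-nt exon numbered 193.0 and 188.7 in control and 214.7 and 209.5 in *Qk* cKO, and tags out of it 70.0 and 66.7 against 61.7 and 63.2. In both exons the inclusion of the groups overlapped and the intervals leave out a Δ*I* as large as that of the 579-nt exon. These 2 exons were named after their values were seen, as neighbours of the called one.

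The 33-nt exon of *Ptprf* on the cytoplasmic side rose in *Qk* cKO. Its inclusion was 0.307 (0.260 to 0.359) and 0.379 (0.330 to 0.431) in control and 0.396 (0.347 to 0.448) and 0.474 (0.424 to 0.524) in *Qk* cKO, with intervals of the embryos nearest to each other overlapping. The groups did not overlap, but the gap between the nearest embryos was smaller than that within a group. The Δ*I* was -0.0920 (95% counting interval -0.143 to -0.0412, Fisher's exact test, adjusted p = 0.00869), and the edgeR interaction test gave an adjusted p of 0.566. Skipping tags numbered 226.6 and 216.1 in control and 213.8 and 197.3 in *Qk* cKO, while tags into the exon numbered 94.4 and 123.9 in control and 135.2 and 168.7 in *Qk* cKO. The call was lost without control replicate 1 (Δ*I* -0.0572, Fisher's exact test, adjusted p = 0.326) and without *Qk* cKO replicate 2 (Δ*I* -0.0521, adjusted p = 0.402).

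In *Ptprs* the block of 4 exons, which also encodes fibronectin repeats, was included less in *Qk* cKO. Its inclusion was 0.535 (0.440 to 0.627) and 0.549 (0.452 to 0.642) in control, and 0.411 (0.325 to 0.502) and 0.407 (0.317 to 0.503) in *Qk* cKO. The embryos of a group were close to each other and the groups were apart, at 0.542 ± 0.00984 and 0.409 ± 0.00291 (SD, n = 2). The Δ*I* was 0.133 (95% counting interval 0.0391 to 0.227, Fisher's exact test, adjusted p = 0.0183), and the edgeR interaction test gave a p of 0.0121 and an adjusted p of 0.324. The call was lost without control replicate 2 (Δ*I* 0.126, Fisher's exact test, adjusted p = 0.187) and without *Qk* cKO replicate 1 (Δ*I* 0.135, adjusted p = 0.109), with a Δ*I* that hardly moved.

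The junctions of the block were less even than this mean. The skipping junction had 49 and 46 tags in control and 68 and 61 in *Qk* cKO. The junction into the block had 29 and 17 tags in control and 7 and 25 in *Qk* cKO, and the junction out of it 84 and 85 against 85 and 45. The 3 junctions inside the block had 21 and 23, 77 and 68, and 71 and 87 tags in control against 17 and 13, 61 and 40, and 67 and 86 in *Qk* cKO. The skipping junction and the first 2 inner junctions kept the groups apart, while the entry, exit and last inner junctions overlapped. With the entry junction alone, inclusion was 0.372 and 0.270 in control and 0.0933 and 0.291 in *Qk* cKO. With the exit junction alone it was 0.632 and 0.649 against 0.556 and 0.425. The plot of junction tags sets the block beside the *Ptprf* exon, where entry, exit and skipping junctions all separated the groups.

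**Figure D3:**
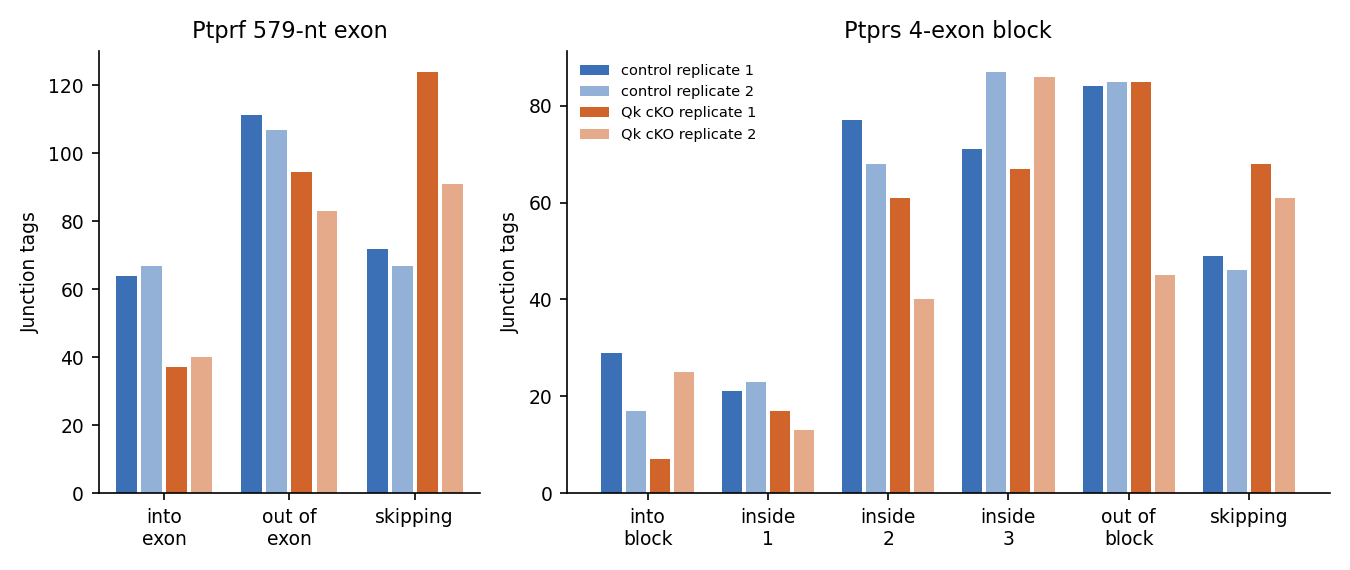
Tags on each junction of the *Ptprf* 579-nt exon (left) and the *Ptprs* 4-exon block (right) in each embryo; bars start at 0, blue is control, orange is *Qk* cKO, and the paler bar is replicate 2. In *Ptprf* both inclusion junctions are lower and the skipping junction higher in *Qk* cKO (124.0 and 91.0 against 72.0 and 67.0), and in *Ptprs* the skipping junction is higher (68 and 61 against 49 and 46) while the entry junction overlaps.

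These junctions held few of the tags of *Ptprs*. The gene had 6690 tags per kb of exon on average over the 4 embryos, the most of the 8 genes, but its block was crossed by 106.4 tags per embryo. Per tag per kb, its 3 tested events had 0.00983 to 0.0212 crossing tags, and only 2.55% of 5441 cassette and tandem cassette events had a lower value than the highest of these 3. The median over those events was 0.118, and the other 16 events of this kind in the 8 genes lay between 0.0527 and 0.224. The inclusion values of *Ptprs* thus rest on few tags for the level of the gene, and the cause of this was not tested.

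The shorter *Ptprs* event of 59 nt, which uses the same entry and skipping junctions as the block, was also called but is not a separate measurement. Its junction on the downstream side had 0 tags in every embryo, so its inclusion rests on the entry junction alone. Fisher's test used isoform tags, which are not limited to junctions. Within the 59 nt there were 157 and 130 tags in control and 102 and 116 in *Qk* cKO. These bases are also part of the first exon of the block. Inclusion was 0.228 and 0.156 in control and 0.0490 and 0.170 in *Qk* cKO, and the groups overlapped. The Δ*I* was 0.0846 (95% counting interval -0.00323 to 0.172, Fisher's exact test, adjusted p = 0.0110). On junction tags alone it was not called (Fisher's exact test, adjusted p = 0.108), and the edgeR interaction test gave an adjusted p of 0.420. Without control replicate 1 the Δ*I* was 0.0456 (Fisher's exact test, adjusted p = 0.175) and without *Qk* cKO replicate 1 it was 0.0248 (adjusted p = 0.197).

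The 27-nt exon of *Ptprs*, which lies inside the block, rose in *Qk* cKO. Its inclusion was 0.465 (0.386 to 0.547) and 0.557 (0.478 to 0.633) in control, and 0.609 (0.531 to 0.682) and 0.652 (0.561 to 0.733) in *Qk* cKO. The groups were apart, but the lower *Qk* cKO embryo was nearer to the higher control than the controls were to each other. The Δ*I* was -0.115 (95% counting interval -0.196 to -0.0338, Fisher's exact test, adjusted p = 0.0716), with an edgeR interaction adjusted p of 0.590. Tags that join the flanking exons without it numbered 77 and 68 in control and 61 and 40 in *Qk* cKO. These are the tags of the second inner junction of the block, so this exon and the block are not separate measurements. This call held only without control replicate 2, where Δ*I* was -0.162 (Fisher's exact test, adjusted p = 0.0518). Without control replicate 1 it was -0.0703 (adjusted p = 0.519), without *Qk* cKO replicate 1 -0.140 (adjusted p = 0.103) and without *Qk* cKO replicate 2 -0.0964 (adjusted p = 0.407).

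No event of *Ptprd* was called by Fisher's exact test, and 1 of the 4 tested had an unadjusted p below 0.05. The event with the largest Δ*I* was the 27-nt exon, with an inclusion of 0.568 and 0.500 in control and 0.452 and 0.347 in *Qk* cKO. The groups did not overlap, and the Δ*I* of 0.155 had a 95% counting interval of 0.0163 to 0.293 (Fisher's exact test, adjusted p = 0.397, edgeR interaction adjusted p = 0.714). Its sign was opposite to that of the 27-nt exon of *Ptprs*, but the *Ptprd* difference did not pass the test, and the difference between the genes was not tested. The 12-nt mini-exon meB of *Ptprd*, named after its values were seen, had an inclusion of 0.511 and 0.580 in control and 0.654 and 0.697 in *Qk* cKO. Its Δ*I* was -0.128 (95% counting interval -0.228 to -0.0272, Fisher's exact test, adjusted p = 0.236). On junction tags alone, the Fisher's exact test gave an adjusted p of 0.0782, past the threshold (7.78% of all events), while the edgeR interaction test gave 0.668 on isoform tags and 0.516 on junction tags. The tests on junction tags add the tags into and out of an exon. A read of 150 nt can cross both junctions of a 12-nt exon and be counted on each. The Fisher call on junction tags can thus rest on inclusion reads that were counted more than once. Tags into meB numbered 36.6 and 45.2 in control and 65.2 and 71.6 in *Qk* cKO, and skipping tags 36.4 and 34.8 against 35.8 and 31.4, so the embryos differed in the inclusion tags and hardly in the skipping tags. The other 2 tested events of *Ptprd* are a pair of overlapping exons of 15 and 12 nt that share isoform tags, with Δ*I* of 0.00758 and 0.0306.

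**Figure D4:**
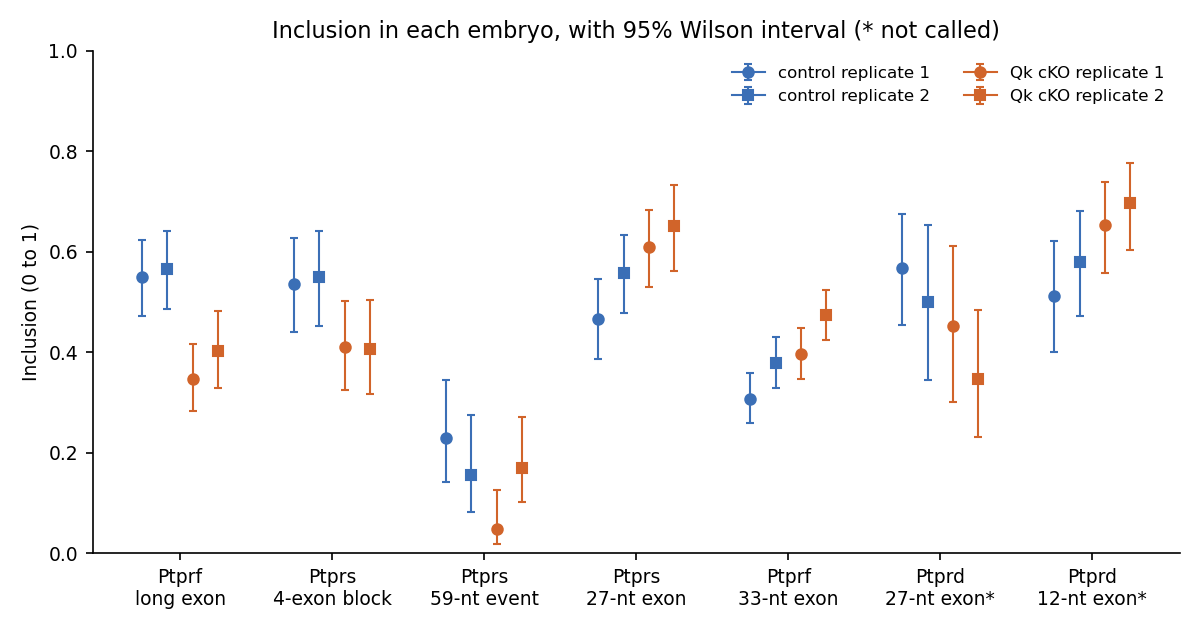
Inclusion (0 to 1) in each embryo for the 5 called events and the 2 *Ptprd* exons described in the text, the latter marked as not called. Points are embryos, bars are 95% Wilson intervals from counting error, blue is control and orange is *Qk* cKO. The *Ptprf* 579-nt exon (0.549 and 0.565 against 0.347 and 0.403) and the *Ptprs* block separate the groups most clearly, and the 59-nt event overlaps.

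In the liprins, no tested event passed. The smallest Fisher p among the 10 events was 0.136, and 0 of them had an unadjusted p below 0.05 in the edgeR interaction test either. Their Δ*I* lay between -0.0205 and 0.0674. The event with the largest absolute Δ*I* was in *Ppfia2*, an alternative 3′ splice site (chr10:106819336-106829034) whose upstream site was used at 0.435 and 0.316 in control and 0.324 and 0.288 in *Qk* cKO. Its Δ*I* was 0.0674 (95% counting interval -0.0442 to 0.179), and the groups overlapped. In *Ppfia1*, a pair of exons of 63 and 27 nt was included at 0.414 and 0.407 in control and 0.398 and 0.392 in *Qk* cKO (Δ*I* 0.0160, interval -0.0697 to 0.102). These 4 values were close together, and the interval leaves out a Δ*I* as large as that of the *Ptprs* block.

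The retained intron of *Ppfia3* (chr7:45340575-45340985) had an inclusion of 0.0220 and 0.0216 in control and 0.0488 and 0.0349 in *Qk* cKO (Δ*I* -0.0205, interval -0.0573 to 0.0162). It was rare in every embryo. In *Ppfibp1*, an exon of 33 nt (chr6:147016861-147016893) had 0.130 and 0.0513 in control and 0.0717 and 0.0771 in *Qk* cKO (Δ*I* 0.0144, interval -0.0726 to 0.101). In *Ppfia4*, neither of the 2 events reached the coverage, the better covered having 9.56 tags, so no difference was detectable there at this depth. Over the liprins 14 of 24 events were too thinly covered to test, and over the phosphatases 13 of 25.

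The partners of these proteins were counted from lists drawn up with earlier results of these data known. Of the genes named below, the paper already lists *Grip1*, *Cask*, *Kif21a*, *Phldb1*, *Mtss1*, *Ptprm* and *Ptprz1* among its spliced genes from these data. In level, edgeR's exact test and DESeq2 also called 0 genes of the 4 lists that follow. Of 30 ligands and co-receptors (syndecans, glypicans, chondroitin sulfate proteoglycans, Slitrk and SALM proteins, *Ntrk3* and interleukin-1 receptor relatives), none was called in level by edgeR. Their median log2 fold change was -0.04, against -0.0025 over all genes. Of the 30, 7 had an unadjusted p below 0.05 with edgeR, a larger share than the 8.76% of all genes. Of these, *Lrfn3*, *Sdc3*, *Lrrc4b*, *Bcan* and *Lrfn1* were lower in *Qk* cKO, and *Vcan* and *Sdc4* were higher. The smallest p was that of *Lrfn3*, which encodes a SALM adhesion protein of the synapse, with a log2 fold change of -0.41 (edgeR adjusted p = 0.214). In splicing, 3 of 10 tested events of this list were called by Fisher's exact test, all in *Vcan*, the proteoglycan versican, with Δ*I* under 0.1 in size, where 7.50% of all events were called. The *Vcan* exon with the smallest p was included at 0.929 and 0.927 in control and 0.992 and 1 in *Qk* cKO, and the edgeR interaction test also called it (adjusted p = 0.0333).

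Of the 8 cytoplasmic partners of the receptors, none was called in level by edgeR (0 with an unadjusted p below 0.05), and 4 of 20 tested events were called by Fisher's exact test (7.50% of all events). They lay in *Mtss1*, which encodes an actin regulator bound by LAR phosphatases, and in *Enah*, the Ena actin regulator. The *Mtss1* exon had an inclusion of 0.631 and 0.508 in control and 0.385 and 0.499 in *Qk* cKO, with a Δ*I* of 0.138 (Fisher's exact test, adjusted p = 0.0218, edgeR interaction adjusted p = 0.566). The lowest control and the highest *Qk* cKO embryo were close to each other, and the call was lost without control replicate 1 (Fisher's exact test, adjusted p = 0.408) and without *Qk* cKO replicate 1 (adjusted p = 0.566).

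Of the 21 partners of the liprins, none was called in level by edgeR (0 with an unadjusted p below 0.05), and 17 of 76 tested events were called by Fisher's exact test, in 7 of 16 genes with a tested event (7.50% of all events were called). Of these, 10 had a Δ*I* of at least 0.1 in size, in 6 genes, against 3.30% of all events, and inclusion was lower in *Qk* cKO in 7 of the 10 and higher in 3. An exon of *Grip1*, the glutamate receptor scaffold that binds liprin-α, was included at 0.846 and 0.658 in control and 0.258 and 0.232 in *Qk* cKO, with a Δ*I* of 0.505 (Fisher's exact test, adjusted p = 1.21e-29, edgeR interaction adjusted p = 0.0255). An exon of *Cask*, a scaffold kinase of the synapse that binds liprin-α2, was included at 0.799 and 0.856 in control and 0.523 and 0.549 in *Qk* cKO (Δ*I* 0.291, edgeR interaction adjusted p = 0.0255). In both genes the groups were far apart and both tests called the exon. In *Kif21a*, the kinesin of the complex with liprin-β1, an exon had 0.650 and 0.641 in control and 0.509 and 0.525 in *Qk* cKO (Δ*I* 0.129, edgeR interaction adjusted p = 0.314). In *Erc2*, the active zone protein ELKS2, an exon had 0.414 and 0.538 in control and 0.370 and 0.315 in *Qk* cKO (Δ*I* 0.144, edgeR interaction adjusted p = 0.564). The calls of these exons of *Kif21a* and *Erc2* rest on Fisher's test, and that of *Erc2* was lost without control replicate 2 (adjusted p = 0.419) and without *Qk* cKO replicate 2 (adjusted p = 0.350). In the other direction, an exon of *Phldb1*, which encodes LL5α and was named after its values were seen, had 0.559 and 0.641 in control and 0.857 and 0.731 in *Qk* cKO (Δ*I* -0.191, Fisher's exact test, adjusted p = 0.0134, edgeR interaction adjusted p = 0.427). That call was lost without control replicate 1 (Fisher's exact test, adjusted p = 0.278) and without *Qk* cKO replicate 1 (adjusted p = 0.255).

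Of the 17 other receptor tyrosine phosphatases, none was called in level by edgeR (1 with an unadjusted p below 0.05), and 4 of 13 tested events were called by Fisher's exact test, in 3 genes (7.50% of all events). In *Ptprz1*, the receptor phosphatase of radial glia, the proximal of its alternative 5′ splice sites was used at 0.748 and 0.769 in control and 0.414 and 0.433 in *Qk* cKO. Its Δ*I* of 0.334 was larger than that of any event of the 8 genes (Fisher's exact test, adjusted p = 4.44e-80, edgeR interaction adjusted p = 5.54e-04). In *Ptprk* a pair of exons had 0.635 and 0.637 in control and 0.347 and 0.528 in *Qk* cKO, and in *Ptprm* an exon had 0.686 and 0.536 against 0.345 and 0.333. The groups did not overlap in these 2 adhesion-type phosphatases, with Δ*I* of 0.197 and 0.265 and edgeR interaction adjusted p of 0.555 and 0.564. The *Ptprk* call was lost without control replicate 1 (Fisher's exact test, adjusted p = 0.244) and without *Qk* cKO replicate 1 (adjusted p = 0.609), and the *Ptprm* call held only without control replicate 2, with an adjusted p of 0.117 to 0.538 without each of the others.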

How the data were processed

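Cortical poly-A RNA came from 2 control and 2 *Qk* cKO embryos (E14.5), grouped and numbered as in the sample labels. Alignment by OLego, against mm10 with known exon junctions, and quantification by Quantas were done by the authors. The gene tables the authors deposited hold an estimated count of tags and an RPKM for every gene. The event tables the authors deposited hold, for 6 types of event, estimated counts of tags for the isoforms and junctions. A count that was not whole was found for 8.41% to 12.1% of the genes, depending on the sample.

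Tags per gene were rounded and compared by edgeR 4.0.16 (R 4.3.3) with the quasi-likelihood test after TMM normalization, over all genes that had at least 1 tag in some sample. Isoform tags were summed over replicates, rounded and compared by two-sided Fisher's exact test (scipy 1.17.1), with Benjamini-Hochberg adjustment within each event type. Δ*I* intervals and Wilson intervals use mean tags per junction and cover counting error only. Exon positions and sequences came from GENCODE M21 by matching exon lengths. Alternatives were DESeq2 1.42.0, edgeR's exact test, upper-quartile scaling, filterByExpr, the edgeR interaction test, junction tags only, coverage of at least 10 or 50, adjustment over all types, the mean of the replicates' inclusion, a block for the replicate number, and the omission of each sample in turn. The edgeR interaction test on junction tags was added after the data were seen. The scripts were tested on simulated data.

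The 8 genes and the lists of related genes were chosen with earlier results of these data known. The text names the 8 genes, their called events, for a gene without one the tested event of largest absolute Δ*I*, and, per related list, up to 4 genes called in level or with a called Δ*I* of at least 0.1, otherwise the gene with the smallest p. The genes of most like level were taken among those with a mean RPKM of at least 1. The edgeR and DESeq2 p-values rest on the spread between 2 embryos per group, and the Fisher p-values on counting error of the summed tags only. Intron sequences were not used here.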

Additional observations from a re-analysis of the deposited data

How the results depend on the processing

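No alternative called any of the 8 genes in level, and their 8 log2 fold changes kept their direction under all 9. With 1 sample left out they moved by more than 1.5 times for *Ppfia4* (-0.32 to -0.05), *Ppfia1* (0.03 to 0.12) and *Ptprf* (-0.12 to -0.06). The number of genes called over the whole table was 110 and became 11 with filterByExpr, 57 with edgeR's exact test and 192 with the replicate block, and lay between 0 and 424 with 1 sample left out. The 0 was without control replicate 2, where edgeR gave 966 genes an unadjusted p below 0.05 and 1650 with all samples. Leaving out a sample assumes that the lone embryo varies like the other group. Fisher's exact test called 862 events, the edgeR interaction test 64 and 129 on junction tags, and Fisher's test between 502 and 754 with 1 sample left out. In the 8 genes the 5 calls became 0 with the edgeR interaction test, 1 with it on junction tags, and 2 to 4 with 1 sample left out, where fewer tags are tested. With the replicate block, the Cochran-Mantel-Haenszel test called 5 events of the 8 genes and the edgeR interaction test 0 (60 events over all genes). The labels do not say what the replicate numbers mark, and the paper calls the embryos littermates without saying which share a litter. The difference between replicates 1 and 2 correlated between the groups at -0.080 over 12424 autosomal genes and -0.012 over events. Over all 12907 genes compared it correlated at 0.173, so same-numbered samples shared a difference in the genes outside the autosomal set. Its source was not tested. With 1 sample left out, Δ*I* changed sign for the 15-nt exon of *Ptprd* (-0.0164 to 0.0345), the 306-nt (-0.0166 to 0.0561) and 27-nt (-0.0244 to 0.0132) exons of *Ptprf* and the 33-nt exon of *Ppfibp1* (-0.0227 to 0.0564), none of them called. The other events described in the 8 genes kept their sign. Limits are the 2 embryos per group, the few junction tags of *Ptprs* and the 27 events under the coverage minimum.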
